A study of Mus musculus with 8 samples.

Results

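Endoplasmic reticulum (ER) folding and stress genes were examined in mouse B cell leukemias that arose with or without a ROR1 transgene. The set was a list of 39 genes chosen for their function, and a gene belonged to it when its name in the gene table, or a current synonym, was on the list. The table held 37 of the 39 among 16417 genes; Ero1b and Atf6 had no row and were read from the probe sets of the same arrays. Leukemia cells of 8 mice were profiled on exon arrays (Affymetrix Mouse Exon 1.0 ST), each mouse on an array of its own. The 4 TCL1 mice carried the TCL1 oncogene under the immunoglobulin heavy chain enhancer (Eµ), and the 4 ROR1xTCL1 mice carried that transgene together with one for ROR1, a cell surface receptor. All 8 leukemias therefore arose in the presence of TCL1, and no cells of mice without it are compared here. Age, strain, organ of origin and the promoter of the ROR1 transgene were not given in the sources used here.

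The ER is where secreted and membrane proteins are threaded through a membrane channel, folded by chaperones and joined by disulfide bonds, and from which misfolded chains are returned to the cytosol for degradation. When unfolded chains accumulate, 3 membrane sensors respond: IRE1 (encoded by Ern1) splices the Xbp1 mRNA, ATF6 is cut to release a transcription factor, and PERK (Eif2ak3) slows translation while favouring that of ATF4. XBP1 and ATF6 raise chaperone genes, whereas ATF4 raises genes of amino acid metabolism and of the later stress response. B lineage cells enlarge this machinery when they become antibody-secreting plasma cells.

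All values are log2 array signals, and a difference is the ROR1xTCL1 mean minus the TCL1 mean on that scale. The gene table labels each array with its genotype and with numbers of unstated meaning, but with no replicate number. Its arrays are therefore called a to d within a group, in column order, and the letters carry no pairing. The median over all genes was 5.03 to 5.09 on every array, and the means of all 37 genes lay above the first quartile of every array (3.52 to 3.71). The B cell markers Cd79a, Cd79b and Ms4a1 read 11.54 to 11.88, 11.85 to 12.13 and 10.66 to 10.96 over the 8 arrays, so none was missing from any leukemia. Cd5, a marker of B-1 cells and of chronic lymphocytic leukemia, read 7.27 to 7.87.

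No ER gene differed between the genotypes at an adjusted p under 0.05. The count was 0 higher and 0 lower of 37 in the limma fit over all 16417 genes, where 0% of genes were called. None of the 37 had an unadjusted p under 0.05 (1.63% of all genes did; the smallest p among the 37 was 0.163, for Pdia6), and none had groups that did not overlap (1.1% of all genes). The mean was higher in ROR1xTCL1 for 29 and lower for 8, with a median difference of 0.11, while 45.9% of all genes had the higher mean in ROR1xTCL1 and the median over all genes was -0.01. This direction rested on 1 leukemia: without ROR1xTCL1 array d, 14 of 37 were above 0 and the median was -0.04. What the data do show is a large difference between individual leukemias that cut across genotype. Over the 8 arrays the 37 genes spanned a median of 1.31 log2 units, against 0.68 for all genes with a mean of at least 5. The 37 genes were also brighter, with a median log2 level of 8.585 against 6.77. Lists of other folding, degradation, translocation and sensor genes, given below, spanned medians of 0.80 to 0.885. A list of plasma cell markers spanned 1.90. The wide span was thus neither common to all ER genes nor particular to these.

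**Figure D1:**
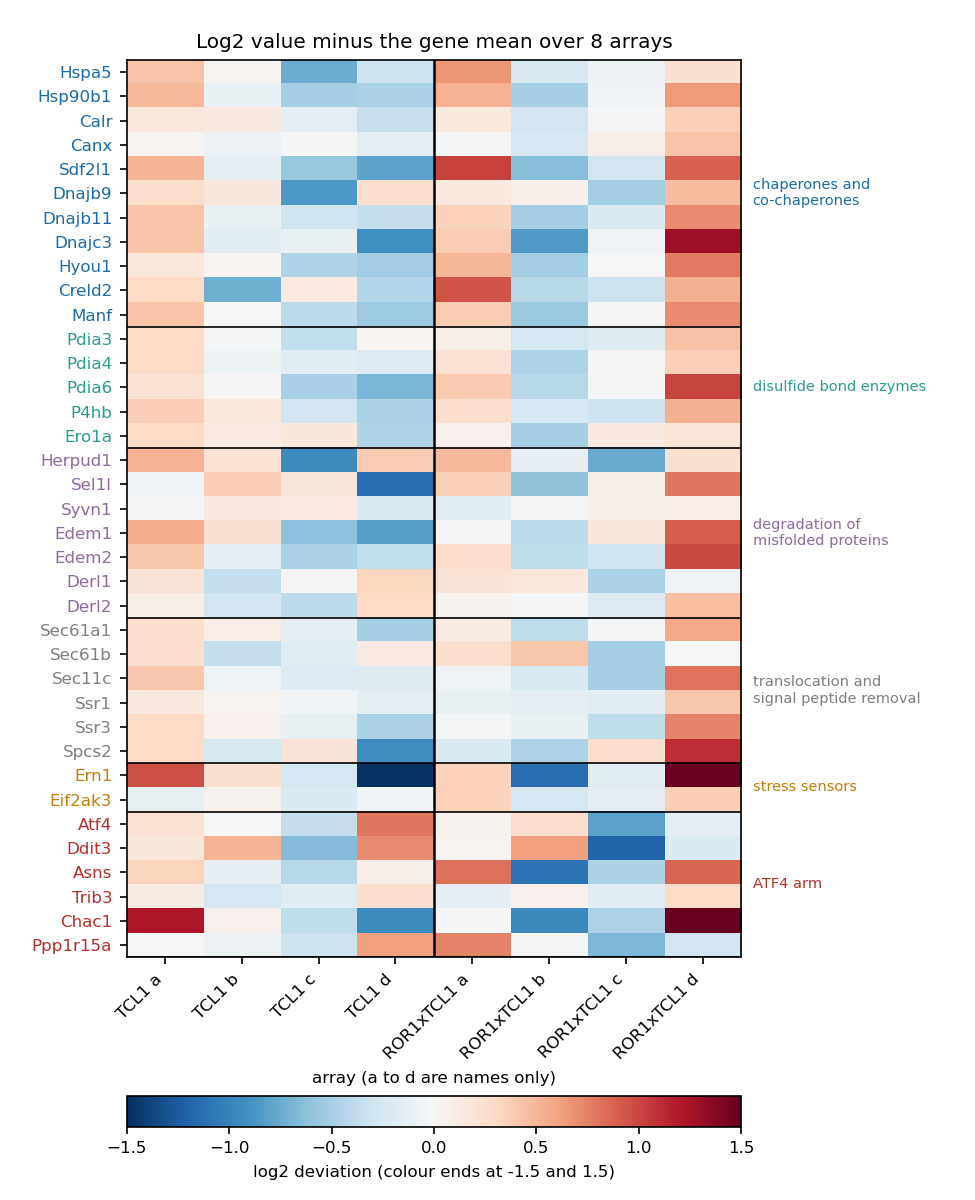
Each cell is the log2 value of a gene on an array minus that gene's mean over the 8 arrays, with red for above and blue for below and genes grouped by role. TCL1 array a, ROR1xTCL1 array a and ROR1xTCL1 array d were high for most chaperone rows, and TCL1 arrays c and d and ROR1xTCL1 array b were low.

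Chaperones and disulfide bond enzymes varied together across the leukemias. A folding score was computed for each array as the mean deviation of 16 measured genes (11 chaperones and co-chaperones and 5 disulfide bond enzymes) from their means over the 8 arrays. The score was 0.32, -0.05, -0.32 and -0.40 on TCL1 arrays a to d. It was 0.38, -0.41, -0.12 and 0.60 on ROR1xTCL1 arrays a to d. Each group thus held both high and low leukemias, and the group means of -0.11 ± 0.32 (SD, n = 4, TCL1) and 0.11 ± 0.46 (SD, n = 4, ROR1xTCL1) were closer to each other than the SD of either group. Their difference of 0.22 was 0.06 without ROR1xTCL1 array d. The highest value was on ROR1xTCL1 array d for 12 of the 16 folding genes and for 26 of all 37. The lowest was on TCL1 array d or ROR1xTCL1 array b for 6 folding genes each.

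Among the chaperones, all 11 had the higher mean in ROR1xTCL1, with a median difference of 0.29 and none past the threshold. Without ROR1xTCL1 array d, 7 of 11 were above 0 (Calr, Canx, Dnajb9 and Dnajb11 were below) and the median was 0.07. Sdf2l1, a partner of the ER Hsp70 system, read 8.18, 7.53, 7.11 and 6.88 on TCL1 arrays a to d and 8.70, 7.04, 7.39 and 8.56 on ROR1xTCL1 arrays a to d. Its groups overlapped, and the difference of 0.50 ± 0.42 (SE) did not pass (adjusted p = 1.0 in limma). Hyou1, an Hsp110-type chaperone that acts as nucleotide exchange factor for BiP, read 7.43, 7.32, 6.83 and 6.75 in TCL1 and 7.77, 6.75, 7.28 and 8.06 in ROR1xTCL1. ROR1xTCL1 array b was as low as the lowest TCL1 leukemia, and the difference was 0.39 ± 0.29 (SE). Dnajc3, a co-chaperone of BiP also known as p58IPK, had the widest span of the chaperones, 2.20 log2 units or 4.60-fold. It read 8.27, 7.68, 7.73 and 6.92 in TCL1 and 8.22, 6.99, 7.78 and 9.12 in ROR1xTCL1, with the lowest leukemia in TCL1 and the highest in ROR1xTCL1.

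Hspa5 encodes BiP (the HSPA5 protein), the central Hsp70 chaperone of the ER, and its array values were picked after they were seen. It read 10.99, 10.61, 9.82 and 10.26 on TCL1 arrays a to d and 11.22, 10.33, 10.49 and 10.80 on ROR1xTCL1 arrays a to d, a difference of 0.29 ± 0.27 (SE) with overlapping groups. The ER Hsp90 gene Hsp90b1 differed by 0.29 ± 0.30, the cysteine-rich protein gene Creld2 by 0.38 ± 0.34 and Manf, a secreted stress-inducible factor of the ER, by 0.26 ± 0.30 (SE). The lectin chaperones of glycoprotein folding varied less: Calr spanned 0.71 and Canx 0.68 log2 units over the 8 arrays. The J-domain co-chaperones Dnajb11 and Dnajb9 differed by 0.16 ± 0.28 and 0.08 ± 0.29 (SE). Dnajb9 departed from the others, since TCL1 array d, low for most chaperones, was among its high arrays (10.75) and only TCL1 array c (9.62) and ROR1xTCL1 array c (9.96) lay below 10.

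Promoters of Hspa5, Hsp90b1, Dnajc3 and the disulfide bond enzyme gene Pdia6 are shown because folding genes varied together across leukemias. The ER stress response element (ERSE), bound by ATF6 with the factor NF-Y and by XBP1, is also the classical element of chaperone genes. Sequences were taken from the RefSeq promoter windows of GRCm38.p6, restricted to the 250 bases before each annotated start. The ERSE was searched on both strands as CCAAT, any 9 bases and CCACG. It was found in 37 of 32851 mouse windows (0.113%) and in 9 of the 33 listed ER genes with a window. Those 9 were Hspa5, Hsp90b1, Calr, Canx, Dnajc3, Creld2, Pdia6, Ero1b and Syvn1. The 33 genes have 34 windows, and the ERSE is the classical element of chaperone genes, so these shares are not a test. The windows of Calr, Canx, Creld2, Ero1b and Syvn1 are not printed. Capitals mark the ERSE, which Hsp90b1 holds at 2 places that do not overlap.
Hspa5, chr2:34771840-34772089, plus strand: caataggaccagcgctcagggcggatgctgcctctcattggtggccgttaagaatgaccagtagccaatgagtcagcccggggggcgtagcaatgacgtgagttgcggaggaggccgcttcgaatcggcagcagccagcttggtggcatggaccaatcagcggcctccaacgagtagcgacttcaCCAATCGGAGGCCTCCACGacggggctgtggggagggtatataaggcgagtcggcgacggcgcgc
Hsp90b1, chr10:86705445-86705694, minus strand: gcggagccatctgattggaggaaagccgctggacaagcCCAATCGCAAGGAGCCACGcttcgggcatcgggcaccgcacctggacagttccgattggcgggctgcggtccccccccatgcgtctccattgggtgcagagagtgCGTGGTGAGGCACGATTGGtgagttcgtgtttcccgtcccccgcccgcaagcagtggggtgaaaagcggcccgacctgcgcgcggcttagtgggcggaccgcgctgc
Pdia6, chr12:17266339-17266588, plus strand: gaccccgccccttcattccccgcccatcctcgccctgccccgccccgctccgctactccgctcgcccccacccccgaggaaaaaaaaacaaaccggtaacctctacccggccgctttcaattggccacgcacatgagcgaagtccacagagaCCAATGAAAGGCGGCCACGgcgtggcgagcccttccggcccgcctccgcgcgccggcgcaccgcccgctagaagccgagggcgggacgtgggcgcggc
Dnajc3, chr14:118937682-118937931, plus strand: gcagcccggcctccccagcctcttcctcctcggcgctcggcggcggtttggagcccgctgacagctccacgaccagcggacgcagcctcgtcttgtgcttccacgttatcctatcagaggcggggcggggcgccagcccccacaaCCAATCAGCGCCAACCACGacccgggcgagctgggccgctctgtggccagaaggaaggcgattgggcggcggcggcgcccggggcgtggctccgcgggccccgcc
A match describes the letters only. Among the 8 of these genes with a gene-table row, the correlation with the folding score over the 8 arrays, each gene itself left out, ran from 0.06 for Syvn1 to 0.99 for Hsp90b1. Sdf2l1 and Dnajb11, with no exact match in their windows, correlated with it at 0.97 and 0.98.

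Disulfide bond enzymes followed the chaperones. Over the 55 pairs of a chaperone with a disulfide bond enzyme the median r was 0.79, with 1 pair below 0. Ero1a followed the folding genes less closely. Its r with the folding score, which also holds the other disulfide bond enzymes, was 0.62, against 0.82 to 0.95 for the other measured enzymes. Of 5 in the gene table, 4 had the higher mean in ROR1xTCL1 and 0 passed, with a median difference of 0.07. Without ROR1xTCL1 array d only Pdia6 was above 0. Pdia6, a protein disulfide isomerase, read 8.07, 7.89, 7.39 and 7.19 in TCL1 and 8.26, 7.46, 7.84 and 8.88 in ROR1xTCL1. The difference of 0.48 ± 0.31 (SE) did not pass (adjusted p = 1.0 in limma), with ROR1xTCL1 arrays b and c inside the TCL1 range. P4hb, which encodes the founding protein disulfide isomerase, read 8.96, 8.74, 8.31 and 8.11 in TCL1 and 8.84, 8.33, 8.28 and 9.12 in ROR1xTCL1, a difference of 0.11 ± 0.25 (SE). Pdia3 and Pdia4 differed by 0.04 ± 0.19 and 0.07 ± 0.19 (SE). Ero1a, the oxidase that recharges these isomerases, differed by -0.07 ± 0.21 (SE), and its highest value was on TCL1 array a. Ero1b, its homologue in secretory cells, was read from 17 probe sets at 8.96, 9.18, 9.09 and 8.65 on TCL1 replicates 1 to 4 and 9.20, 8.70, 8.96 and 9.33 on ROR1xTCL1 replicates 1 to 4, a difference of 0.08 ± 0.17 (SE).

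Degradation genes were divided, with 4 of 7 above 0 and 0 past the threshold (3 of 7 above 0 without ROR1xTCL1 array d). Edem1, a lectin that hands misfolded glycoproteins to the degradation machinery, read 9.95, 9.63, 8.78 and 8.58 in TCL1 and 9.37, 9.0, 9.57 and 10.30 in ROR1xTCL1, a difference of 0.33 ± 0.36 (SE). Sel1l, the adaptor of the ubiquitin ligase complex, read 9.20, 9.61, 9.42 and 8.11 in TCL1 and 9.60, 8.64, 9.33 and 10.04 in ROR1xTCL1, a difference of 0.32 ± 0.38 (SE). TCL1 array d was far below the other TCL1 arrays for Sel1l, and the groups of both genes overlapped. Edem2 followed the folding score (r = 0.95), whereas Syvn1, the ubiquitin ligase itself, and Derl1, of the exit channel, did not (r = 0.06 and -0.04). Syvn1 was also the steadiest of the 37 genes, with a span of 0.34 log2 units and a difference of -0.01 ± 0.12 (SE). Derl1, Derl2 and Herpud1, a stress-induced scaffold of the complex, differed by -0.09 ± 0.19, 0.14 ± 0.19 and -0.08 ± 0.37 (SE).

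Herpud1 is shown because, of the 33 listed genes with a window, only this one held matches to elements of both branches. The ERSE-II, searched as ATTGG, any 1 base and CCACG, was found in 10 of all windows (0.0304%) and among the ER genes only in Herpud1. The C/EBP-ATF response element (CARE), to which ATF4 binds, was searched as TGATGNAA and found in 3.45% of all windows and in Herpud1, Asns and Chac1. All searches covered both strands; capitals mark the CARE, then the ERSE-II, and they do not overlap.
Herpud1, chr8:94386179-94386428, plus strand: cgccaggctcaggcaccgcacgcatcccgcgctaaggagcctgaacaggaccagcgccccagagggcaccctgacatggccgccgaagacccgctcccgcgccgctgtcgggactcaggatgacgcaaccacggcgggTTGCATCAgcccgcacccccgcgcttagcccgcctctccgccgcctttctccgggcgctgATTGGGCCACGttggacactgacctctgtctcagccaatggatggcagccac
Herpud1 read 9.85, 9.54, 8.37 and 9.71 in TCL1 and 9.81, 9.20, 8.57 and 9.56 in ROR1xTCL1. It was low on array c of either group, and TCL1 array d was not low, unlike in most folding genes.

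Translocation and signal peptide genes had a median difference of 0.10, with 5 of 6 above 0 and 0 past the threshold, and 2 of 6 were above 0 without ROR1xTCL1 array d or without TCL1 array d. Sec61a1, the pore of the translocation channel, read 10.79, 10.62, 10.37 and 10.03 in TCL1 and 10.63, 10.14, 10.49 and 11.08 in ROR1xTCL1, a difference of 0.14 ± 0.23 (SE). Spcs2, a signal peptidase subunit, read 8.23, 7.70, 8.14 and 7.01 in TCL1 and 7.74, 7.49, 8.20 and 9.06 in ROR1xTCL1, a difference of 0.35 ± 0.37 (SE). In both, ROR1xTCL1 array d was the highest and TCL1 array d the lowest of the 8, and the groups overlapped. The translocon-associated proteins Ssr1 and Ssr3 differed by -0.0013 ± 0.15 and 0.12 ± 0.25 and the signal peptidase subunit Sec11c by 0.02 ± 0.27 (SE). Sec61b, the small channel subunit, differed by 0.08 ± 0.22 (SE) and did not follow the folding score (r = 0.09).

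The sensor gene Ern1 varied most of all 37. It read 7.67, 6.94, 6.44 and 5.23 on TCL1 arrays a to d and 7.06, 5.56, 6.55 and 8.24 on ROR1xTCL1 arrays a to d, a span of 3.01 log2 units or 8.04-fold. Its difference between the groups was 0.28 ± 0.63 (SE), with a 95% interval from -1.13 to 1.70, and it was -0.18 without ROR1xTCL1 array d. Ern1 correlated with the folding score at r = 0.92 although it was not used to compute it. Eif2ak3 (PERK) read 8.48, 8.64, 8.38 and 8.54 in TCL1 and 8.93, 8.32, 8.43 and 8.96 in ROR1xTCL1, a much narrower span of 0.64 and a difference of 0.15 ± 0.17 (SE). Atf6, read from 25 probe sets, was at 8.80, 8.79, 8.50 and 8.50 on TCL1 replicates 1 to 4 and 8.78, 8.92, 8.32 and 8.78 on ROR1xTCL1 replicates 1 to 4, a difference of 0.05 ± 0.15 (SE). The groups of Atf6 overlapped, as did those of Eif2ak3.

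**Figure D2:**
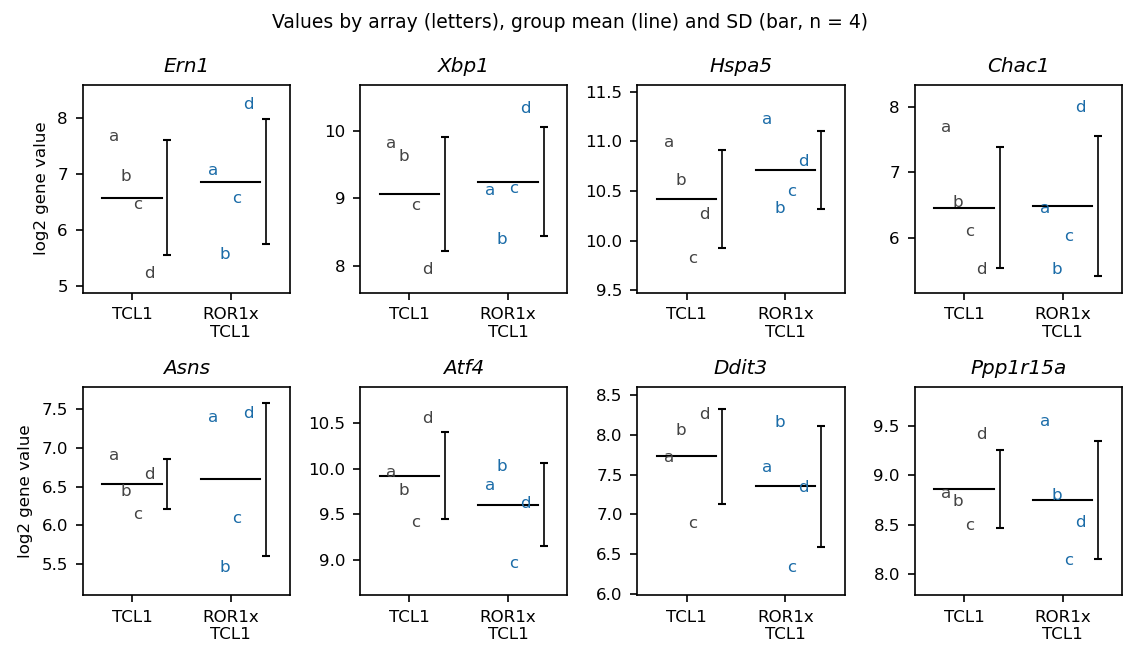
Log2 gene values of 8 genes by group; letters are arrays, the line is the group mean and the bar the SD (n = 4), and each panel has its own axis. ROR1xTCL1 array d was the highest for Ern1, Xbp1, Chac1 and Asns, while Atf4 and Ddit3 were highest on TCL1 array d.

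The ATF4 arm did not move as one. Asns (asparagine synthetase) and Chac1 (a glutathione-degrading enzyme) followed the chaperones, whereas Atf4, Ddit3 and Ppp1r15a did not. ATF4 output is set largely at translation, so the Atf4 mRNA is an indirect reading of it. Of the 6 genes 3 were above 0 and 3 below, with a median difference of -0.04 and 0 past the threshold. Without ROR1xTCL1 array d all 6 were below 0 and the median was -0.27.

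Atf4 read 9.96, 9.76, 9.41 and 10.55 on TCL1 arrays a to d and 9.82, 10.03, 8.96 and 9.62 on ROR1xTCL1 arrays a to d, a difference of -0.32 ± 0.29 (SE). Ddit3, which encodes the pro-apoptotic factor CHOP, read 7.71, 8.05, 6.89 and 8.25 in TCL1 and 7.58, 8.16, 6.34 and 7.34 in ROR1xTCL1, a difference of -0.37 ± 0.41 (SE). Both were high on TCL1 array d, where most chaperones were low, and low on array c of each group. Atf4 and Ddit3 correlated with each other at r = 0.91 over the 8 arrays and with the folding score at -0.17 and -0.15. Ppp1r15a (GADD34), which recruits the phosphatase that ends the translation block, read 8.81, 8.73, 8.49 and 9.42 in TCL1 and 9.55, 8.79, 8.13 and 8.52 in ROR1xTCL1, a difference of -0.11 ± 0.31 (SE). Its highest values were on ROR1xTCL1 array a and TCL1 array d.

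Chac1 read 7.69, 6.54, 6.09 and 5.52 in TCL1 and 6.45, 5.51, 6.02 and 7.99 in ROR1xTCL1. Its span of 2.48 log2 units (5.56-fold) came with almost equal group means, a difference of 0.03 ± 0.58 (SE), and it correlated with Ern1 at r = 0.95 and with Atf4 at -0.16. Asns read 6.90, 6.44, 6.14 and 6.66 in TCL1 and 7.39, 5.46, 6.09 and 7.44 in ROR1xTCL1, a difference of 0.06 ± 0.43 (SE), with all 4 TCL1 arrays lying inside the ROR1xTCL1 range. Trib3, a pseudokinase induced by ATF4 and CHOP, read 5.50, 5.14, 5.24 and 5.63 in TCL1 and 5.27, 5.46, 5.24 and 5.69 in ROR1xTCL1, a span of only 0.54 and a difference of 0.03 ± 0.15 (SE).

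The Asns and Chac1 promoters are shown because these are the ATF4 arm genes whose windows hold the CARE, marked in capitals.
Asns, chr6:7693210-7693459, minus strand: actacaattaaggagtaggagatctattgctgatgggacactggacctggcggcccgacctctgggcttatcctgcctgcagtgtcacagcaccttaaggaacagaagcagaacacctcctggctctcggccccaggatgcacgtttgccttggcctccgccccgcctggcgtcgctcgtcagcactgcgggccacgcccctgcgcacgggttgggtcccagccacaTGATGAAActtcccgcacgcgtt
Chac1, chr2:119350992-119351241, plus strand: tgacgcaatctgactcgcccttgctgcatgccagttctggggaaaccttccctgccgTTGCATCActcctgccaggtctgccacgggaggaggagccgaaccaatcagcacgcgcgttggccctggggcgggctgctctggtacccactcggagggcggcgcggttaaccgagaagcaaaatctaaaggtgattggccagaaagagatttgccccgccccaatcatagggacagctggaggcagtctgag
Both genes tracked the folding score (r = 0.85 for Asns and 0.89 for Chac1) and correlated weakly with Atf4 mRNA (r = 0.13 and -0.16).

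Set against each other, the folding genes and the ATF4 arm parted on particular leukemias. The ATF4 arm score, over 6 genes, was 0.34, 0.02, -0.38 and 0.25 on TCL1 arrays a to d and 0.25, -0.19, -0.63 and 0.34 on ROR1xTCL1 arrays a to d. The folding score minus the ATF4 arm score was -0.02, -0.07, 0.07 and -0.65 in TCL1 and 0.12, -0.22, 0.51 and 0.26 in ROR1xTCL1. TCL1 array d stood at one end, with a folding score of -0.40 and an ATF4 arm score of 0.25. That ATF4 arm score was not the highest, since TCL1 array a and ROR1xTCL1 array d were at 0.34. Atf4 and Ddit3 were at their highest on TCL1 array d, whereas Chac1 was low there (5.52). ROR1xTCL1 array c stood at the other end with the lowest ATF4 arm score of the 8. The group means of this contrast were -0.17 ± 0.32 (SD, n = 4, TCL1) and 0.17 ± 0.31 (SD, n = 4, ROR1xTCL1), and the groups overlapped because ROR1xTCL1 array b lay among the TCL1 values. No p-value is given for these scores, because the members were chosen with earlier results of these data known.

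**Figure D3:**
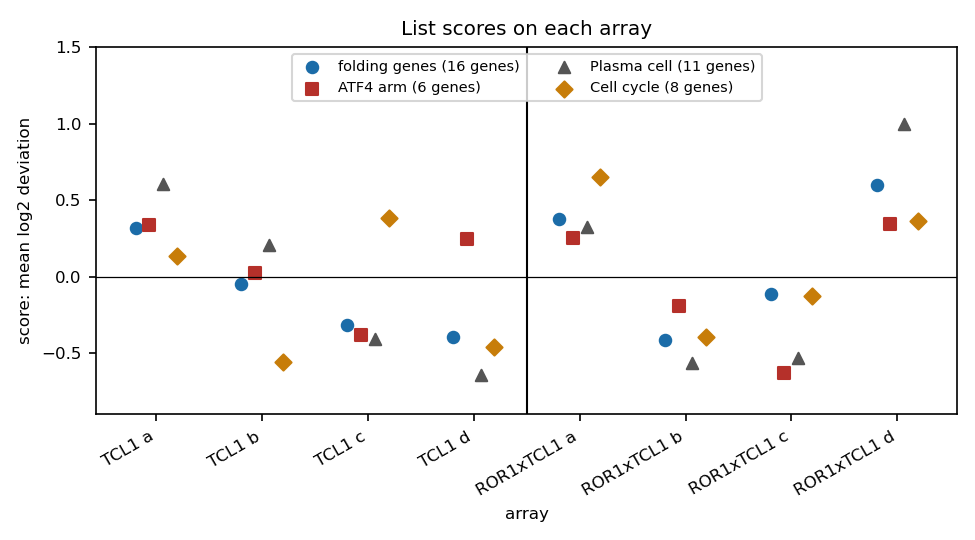
Score of 4 gene lists on each array (mean log2 deviation of the list's genes from their means over the 8 arrays). Folding and plasma cell scores were both highest on ROR1xTCL1 array d (0.60 and 1.0), and TCL1 array d combined a folding score of -0.40 with an ATF4 arm score of 0.25.

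Coherence was described by Pearson correlations over the 8 arrays, which the genes share; they carry no p. The median over the 120 pairs of folding genes was 0.79, with 1 pair below 0. Between folding genes and the ATF4 arm it was 0.19, with 35 of 96 pairs below 0, and within the ATF4 arm it was 0.33. Over all pairs of genes with a mean of at least 5 the median was 0.0036. With the gene itself left out, 10 of 16 folding genes correlated above 0.9 with the folding score. So did 3 of the 21 other ER genes, namely Edem2, Sec61a1 and Ern1, and 34 of 8324 genes outside the set (0.408%).

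**Figure D4:**
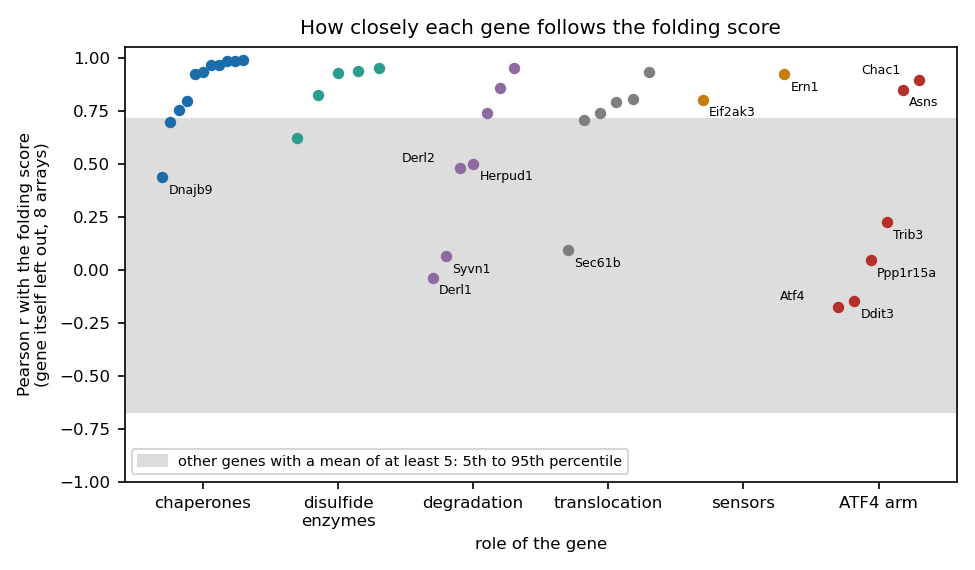
Pearson r of each gene with the folding score over the 8 arrays, by role, the gene itself left out; the grey band holds the middle of the 8324 other genes with a mean of at least 5 (5th percentile -0.67, 95th percentile 0.71). Most folding genes lie above the band, but Creld2, Ero1a and Dnajb9 lie inside it. Also inside are Atf4, Ddit3, Ppp1r15a, Trib3, Syvn1, Derl1, Derl2, Herpud1, Sec61b and Spcs2.

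The 6 genes outside every written list whose pattern was most like the folding score were Saraf (r = 0.96), an ER membrane regulator of calcium entry, Chmp2a (0.96), a subunit of the ESCRT-III membrane remodelling complex, Mtx2 (0.96), of the mitochondrial outer membrane, Ccdc92 (0.96), the kinase gene Tlk1 (0.95) and Ncl (0.94), which encodes nucleolin. Likeness was Pearson r over 8 arrays, among genes with a mean of at least 5. Saraf read 7.34, 7.02, 6.58 and 6.40 in TCL1 and 7.15, 6.23, 6.86 and 7.76 in ROR1xTCL1, a difference of 0.16 ± 0.32 (SE).

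Other genes of the pathway had 0 calls in either direction. Among other translocation and transport components 18 of 22 were above 0, with a median difference of 0.10, and the coat protein genes Sec13 and Sec23b and the receptor gene Kdelr3 differed by 0.19 ± 0.14, 0.16 ± 0.14 and 0.28 ± 0.23 (SE), the last turning to -0.21 with the median of probe sets. Among other folding and glycosylation enzymes 19 of 26 were above 0, with a median of 0.07, and the oligosaccharyltransferase subunits Rpn2 and Ostc and the glucosyltransferase gene Uggt1 differed by 0.18 ± 0.15, 0.15 ± 0.16 and 0.12 ± 0.10 (SE). Among other degradation components 9 of 14 were above 0, with a median of 0.06, and Ubxn4, Marchf6 and Faf2 differed by 0.18 ± 0.13, 0.10 ± 0.12 and -0.14 ± 0.19 (SE). The scores of these lists were highest on ROR1xTCL1 array d (0.59, 0.46 and 0.33), as for the chaperones. Without that array 5 of 22, 8 of 26 and 5 of 14 were above 0. Other stress sensors and transcription factors had 15 of 17 above 0 (7 of 17 without ROR1xTCL1 array d) with a median of 0.06, and Cebpb, Eif2ak2 and Nfe2l2 differed by 0.22 ± 0.23, 0.14 ± 0.20 and 0.12 ± 0.18 (SE). In that list Xbp1, named after its values were seen, read 9.82, 9.62, 8.90 and 7.95 in TCL1 and 9.12, 8.40, 9.14 and 10.34 in ROR1xTCL1, the same ends of the order as for Ern1.

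Other ATF4 targets gave 14 of 29 above 0 (7 of 29 without ROR1xTCL1 array d) and a median of -0.00075, with 0 called. Nupr1, a stress-inducible nuclear protein gene, was the only one of the 29 with an unadjusted p under 0.05, at 5.08 ± 0.16 in TCL1 and 4.73 ± 0.25 in ROR1xTCL1 (SD, n = 4 each), a difference of -0.35 ± 0.15 (SE; adjusted p = 1.0 in limma). Slc7a11, the cystine transporter, differed by -0.44 ± 0.30 (SE), with 1 high array, TCL1 array a at 4.48. The other 7 read 2.88 to 3.27, below the first quartile of every array (3.52 to 3.71). Eif4ebp1, a translation repressor, differed by -0.17 ± 0.14 (SE). Chaperones of the cytosol and mitochondria showed another order of the leukemias, with the highest score on ROR1xTCL1 array c (0.48) and 12 of 14 above 0. The Hsp40 gene Dnaja1 read 5.70, 5.53, 4.74 and 5.09 in TCL1 and 5.57, 5.88, 6.42 and 6.12 in ROR1xTCL1, a difference of 0.73 ± 0.25 (SE). The co-chaperone gene Bag3 differed by 0.51 ± 0.19 and the Hsp110 gene Hsph1 by 0.92 ± 0.41 (SE), the latter with ROR1xTCL1 array c at 8.94 and the other 7 at 6.26 to 7.31. None of the 3 passed (adjusted p = 1.0 in limma), although Dnaja1 and Bag3 had unadjusted p under 0.05.

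**Figure D5:**
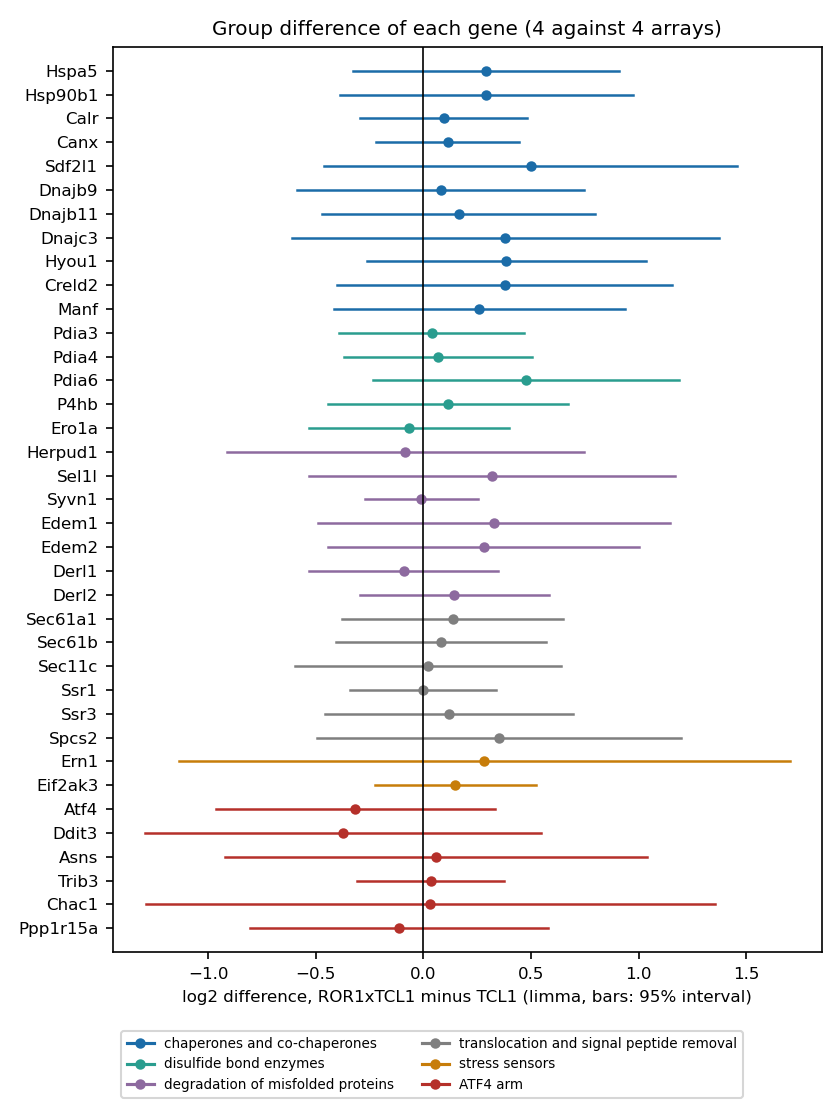
Log2 difference of each of the 37 genes, ROR1xTCL1 minus TCL1, with the 95% interval of the limma fit and colour by role. Every interval includes 0; the widest is that of Ern1 (-1.13 to 1.70) and the narrowest that of Syvn1 (-0.27 to 0.25).

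Many markers of antibody-secreting cells varied with the folding genes, including the transcription factor gene Xbp1 (r = 0.84 with the folding score). Irf4 and Prdm1, which also encode transcription factors, followed the folding genes less closely. The plasma cell list (11 of 12 genes measured) scored 0.61, 0.21, -0.41 and -0.64 on TCL1 arrays a to d and 0.33, -0.56, -0.53 and 1.0 on ROR1xTCL1 arrays a to d. Mzb1, an ER co-chaperone of B lineage cells, read 10.60, 10.41, 10.65 and 9.34 in TCL1 and 10.63, 9.14, 9.83 and 11.04 in ROR1xTCL1. Sdc1 and Tnfrsf17, which encode the surface markers CD138 and BCMA and are named after their values were seen, were highest on ROR1xTCL1 array d (7.56 and 8.66) and next on TCL1 array a (7.15 and 7.97). Their correlations with the folding score were 0.88 and 0.86, and over the 11 markers r ran from 0.48 to 0.95, the latter for Slamf7. Irf4, a factor of plasma cell differentiation, read 8.56, 8.60, 8.47 and 8.76 in TCL1 and 8.65, 8.71, 8.21 and 9.31 in ROR1xTCL1 (r = 0.48), and within each group 1 of its 2 highest arrays was low for folding genes (TCL1 array d and ROR1xTCL1 array b). Prdm1, which encodes the plasma cell regulator BLIMP1, was named after its values were seen. It read 9.0, 9.09, 8.69 and 7.82 in TCL1 and 8.61, 8.52, 8.27 and 8.71 in ROR1xTCL1 (r = 0.48), with its highest value on TCL1 array b. Some markers were dim. Cav1 (3.53 on TCL1 array c) and Tnfrsf17 (4.83 on ROR1xTCL1 array c), for example, fell below the array medians of 5.03 to 5.09. Several genes of that list (Xbp1, Derl3, Fkbp11 and Mzb1) themselves act in or for the ER, so the lists are not separate in function. In bulk RNA a larger share of such cells cannot be told apart from more RNA of these genes per cell, and the part of the plasma cell markers in the folding score was not tested. ROR1xTCL1 array a, high for folding genes, had the highest erythroid score (1.66) and cell cycle score (0.65), and TCL1 array a the highest neutrophil (2.66), monocyte (0.91) and T cell (0.76) scores. Their part in the result was not tested.

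The probe sets of the same arrays carry replicate numbers. Folding scores from probe set means also included Ero1b, unlike those from the gene table. On TCL1 replicates 1 to 4 they were 0.31, -0.03, -0.25 and -0.45. On ROR1xTCL1 replicates 1 to 4 they were 0.39, -0.44, -0.08 and 0.57. Of 659 probe sets annotated to the 39 genes, 0 passed over all 1236087 probe sets (0% called; limma, smallest adjusted p = 0.931). An unadjusted p under 0.05 was found for 7 of them (1.06%), against 3.3% of all probe sets, and 5 of the 7 belonged to Hyou1. Hyou1 had 35 of its 38 probe sets above 0 and a mean difference of 0.41 ± 0.25 (SE), and probe sets of 1 gene share its transcripts and are not independent. Of the 37 genes in both tables, 34 had a difference of the same sign in each.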

How the data were processed

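Transcripts of leukemia cells were measured on 8 exon arrays, 4 per genotype, with no technical replicates per the series text. The deposited probe set table holds log2 values that, per the labels, come from RMA, a method that corrects background, equalises array distributions and combines probes, run in the oligo package of Bioconductor. The submitters' processing notes list R 2.15.1. The deposited gene table was read as log2 because of its range; its scale and how it was made are not given in the sources used here, and the series description mentions Affymetrix's Exon Array Computational Tool. Values are therefore relative to other genes of an array, and the number of arrays limits the precision.

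Rows named by a number (4) were dropped and 74 repeated symbols averaged. Names matched RefSeq symbols (GRCm38.p6) for 14742 of 16417 genes and synonyms for 1440, and 235 stayed as deposited. A single gene was annotated to 321091 probe sets; 7796 with several genes and 907200 with none stayed unnamed. Promoter windows existed for 33 of the 39 genes.

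ROR1xTCL1 was compared with TCL1 by limma 3.58.1 in R 4.3.3 (lmFit, eBayes, 2-sided, no filter). P-values were adjusted by Benjamini-Hochberg across the whole table, calls needed an adjusted p under 0.05 and intervals are 95%. The fit was tested on simulated data. Members and lists were chosen with earlier results of these data known. All members are named. Array values are given for the 2 largest differences and the widest span per role, all sensors and the ATF4 arm; other pathway lists give the 3 smallest p, cell type lists the highest means. Alternatives changed the test, a filter, scaling, repeated names, the gene summary, a covariate for Ddx3y (a Y-linked gene), the replicate block and each array in turn.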

Additional observations from a re-analysis of the deposited data

Results flagged for a closer look

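In 2 of 92 sets of 4 arrays examined (37 genes and 9 scores in each genotype), a single array lay apart from the other 3; chance alone marks about 1 group in 20. Dnajb9, a co-chaperone of BiP, was at 9.62 on TCL1 array c and at 10.65, 10.75 and 10.75 on the other TCL1 arrays. Ssr1, a translocon-associated protein gene, was at 10.10 on ROR1xTCL1 array d and at 9.53, 9.54 and 9.58 on the other ROR1xTCL1 arrays.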

How the results depend on the processing

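The count of ER genes past the threshold was 0 under all 17 alternatives to the limma fit, as was the count over all genes. The score difference over all members (0.13) ran from 0.13 to 0.17 over the settings that kept all arrays and from -0.03 to 0.26 when 1 array was left out, and it was below 0 only without ROR1xTCL1 array d. That of the folding genes (0.22) ran from 0.06 to 0.40 with 1 array left out, lowest without ROR1xTCL1 array d and highest without ROR1xTCL1 array b, and was 0.27 with chaperones alone. That of the ATF4 arm (-0.11) ran from -0.26 to 0.08, above 0 only without ROR1xTCL1 array c; it was -0.03 with Ddx3y as a covariate and -0.02 with the median of probe sets. The folding minus ATF4 arm difference (0.34) ran from 0.18 without TCL1 array d to 0.47 without ROR1xTCL1 array b. Without ROR1xTCL1 array b, 2 of the 37 members, Hyou1 and Pdia6, had an unadjusted p under 0.05 in limma. So did 400 of all 16417 genes. Under the other 16 alternatives no member did. The sign of the difference held for 14 of 37 members under all 17. Kdelr3 turned to -0.21 with the median of probe sets; the cause was not tested. Deviations of same-numbered arrays correlated at -0.0047 to 0.23, and not every array correlated best with its own number, so the numbers were not taken as pairs. With the replicate block on gene values from probe sets 0 genes were called and the score difference over all members was 0.14. At probe set level the count of 0 became 1 with trend and robust estimation, ran from 0 to 2 with 1 array left out and was 0 with the replicate block.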
